A study of Mus musculus with 16 samples.

Results

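The comparison described here sets the Kdm7a-shRNA + Morphine samples against the Ctrl + Saline samples and asks which known genes lay at, stayed away from or passed the Ctrl + Saline level. Its members were chosen by their group labels, with earlier results of these data known. They were 4 Kdm7a-shRNA + Morphine samples and 3 Ctrl + Saline samples, 7 of the 16 samples in the series. The study knocked down Kdm7a in the medial prefrontal cortex (mPFC) of mice trained in conditioned place preference, in which a drug is paired with a place. It sequenced RNA from mPFC tissue taken on withdrawal day 7 as full-length cDNA on the Nanopore platform. All 4 groups were male C57BL/6 mice of 8 to 10 weeks that received a virus in the mPFC, went through 10 days of conditioning and were sampled on the same withdrawal day. The paper reports that the tissue was taken directly after a repeat test of place preference. The samples thus followed re-exposure to the conditioning chambers. The Kdm7a-shRNA + Morphine group carried an AAV with a U6-driven shRNA against Kdm7a and a CMV-driven EGFP, and was conditioned with morphine at 10 mg/kg. The Ctrl + Saline group, called the baseline here, carried the matching AAV with a non-targeting shRNA and was given saline throughout, so it was not an untreated or uninjected group. The 4 Ctrl + Morphine and 5 Kdm7a-shRNA + Saline samples carried the control virus with morphine and the knockdown virus with saline. Neither U6 nor CMV restricts expression to a cell type. Virus and drug both differ between the compared groups, so this contrast alone cannot tell their parts apart. The labels number the samples without stating that each came from a separate mouse, so p-values measure the spread between these samples.

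The enzyme encoded by Kdm7a takes dimethyl groups off histone H3 at lysines 9 and 27, where they mark repressed genes. The mPFC is a cortical region of glutamatergic projection neurons and GABAergic interneurons that takes part in drug-associated memory. Morphine acts on opioid receptors, of which the mu receptor is the main target.

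The deposited counts came to between 6596991 and 12418112 reads per sample. Levels are given as CPM, each count as a share of its sample's reads on tested entries, after TMM scaling, a correction for composition, so they differ slightly from the deposited CPM. Of 19069 known genes in the table, meaning entries with a gene symbol that were not loci assembled by the authors, 14162 had enough reads to be tested. A gene was called higher or lower when it differed by 1.5-fold or more and edgeR gave an adjusted p under 0.05. It was counted as held at baseline when the whole 95% interval of its fold change lay within 1.5-fold in either direction, and as undecided when it met neither rule. A held gene needs a narrow interval, so shares held depend on precision as well as on level. Reads were assigned to genes without a stated strand, so antisense and overlapping genes could share reads.

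One library stood apart from its group. Kdm7a-shRNA + Morphine sample 3 was the deepest, at 12418112 reads. Its rank correlations with the other samples of its group were 0.947 to 0.970, a range that another pair of the group also reaches into. With the Ctrl + Saline samples its correlations were 0.938 to 0.951, below the 0.962 to 0.974 of the other samples of its group. Sample 3 lay at -51.7 on the first principal component of all 16 samples, which held 34.97% of the variance. The other Kdm7a-shRNA + Morphine samples lay at -14.6, -7.05 and 22.4, and the Ctrl + Saline samples at 19.5, 31.7 and 32.2. Kdm7a-shRNA + Morphine sample 4, at 22.4, thus lay among the Ctrl + Saline samples. Kdm7a-shRNA + Saline samples 1 to 5 lay at -14.8, -39.8, -54.4, 6.01 and -40.7, a range that includes Kdm7a-shRNA + Morphine sample 3. Counts that depend on that library are given without it below.

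The targeted transcript was lower, as the group label states. Kdm7a (ENSMUSG00000042599, GRCm38 chr6:39136623-39206789, minus strand) read 6.28, 4.44, 3.01 and 6.04 CPM in the Kdm7a-shRNA + Morphine samples and 9.78, 9.08 and 9.41 CPM in the Ctrl + Saline samples. Each knockdown sample lay below each baseline sample, with the lowest level in sample 3. The log2 fold change was -0.95 (SE 0.22, edgeR adjusted p = 0.00974). Kdm7a averaged 7.72 ± 1.13 CPM (SD, n = 4) in Ctrl + Morphine and 5.55 ± 0.571 CPM (SD, n = 5) in Kdm7a-shRNA + Saline samples. In bulk tissue, fewer cells of a type and less RNA per cell cannot be told apart, here and for each gene below. Fitted on the 7 samples alone, Kdm7a changed by -0.96 with an adjusted p of 0.0596. An antisense gene, 4930599N23Rik, overlaps Kdm7a. The other members of its family, Phf8 and Phf2, which also demethylate histone H3 or H4, had log2 fold changes of 0.00 and 0.26 and were undecided. Among 26 tested genes for the family and for enzymes of H3K9 and H3K27 methylation, 1 was called higher, 1 lower and 9 held, with a median of -0.06, beside 4.21% higher, 1.14% lower and 30.6% held of all known genes. The gene called higher was Kdm4b, a demethylase of trimethylated lysine 9. Kdm4b read 18.4, 12.8, 19.2 and 20.8 CPM with knockdown and morphine and 13.1, 8.88 and 10.9 CPM at baseline. Its groups overlapped, since knockdown sample 2 lay under Ctrl + Saline sample 1. The log2 fold change was 0.71 (SE 0.21, edgeR adjusted p = 0.0354). Kdm4b lost its call in 11 of 17 alternatives: without Ctrl + Saline sample 2 or 3 or Kdm7a-shRNA + Morphine sample 1, 3 or 4 (0.57 to 0.69), and under library size scaling, TMM over known genes, known genes alone, the 10-count filter, the 7 samples alone and the GC offset (0.49 to 0.69).

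Across the known genes, more lay above the baseline than below it. Of 14162 tested, 757 were called (5.35%), 596 higher (4.21%) and 161 lower (1.14%). Among the called genes, 293 of the higher and 49 of the lower differed by at least 2-fold. Another 4329 (30.6%) were held at baseline and 9076 were undecided. An unadjusted p under 0.05 was found for 3188 known genes (22.5%). Counts at that p in the lists below, with all samples in, stand beside this share. The median log2 fold change of all known genes was 0.11. The excess of higher genes depended on scaling: 78.7% of the called genes were higher here. TMM factors were 0.939 to 0.991 in the Kdm7a-shRNA + Morphine samples and 1.02 to 1.07 in the Ctrl + Saline samples, without overlap. Over all 16 samples they were 0.913 to 0.991 with the knockdown virus and 1.02 to 1.07 with the control virus. The scaling factor and the virus thus cannot be told apart. Scaling to library size alone gave 387 higher and 280 lower (58.0% higher) and moved the median of all known genes by -0.10. TMM over known genes alone gave 404 and 249 (61.9%). Filtering to at least 10 counts in every sample gave 306 and 159 (65.8%), a test of known genes alone 184 and 138 (57.1%), and a fit of the 7 samples alone 184 and 93 (66.4%). The count of called genes was 391 without Ctrl + Saline sample 2 and 228 without sample 3. It was 393 without Kdm7a-shRNA + Morphine sample 3 and 1249 without sample 4. Loci assembled by the authors went the other way, with 50 higher and 1159 lower of 4664 tested, and are not described further.

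**Figure D1:**
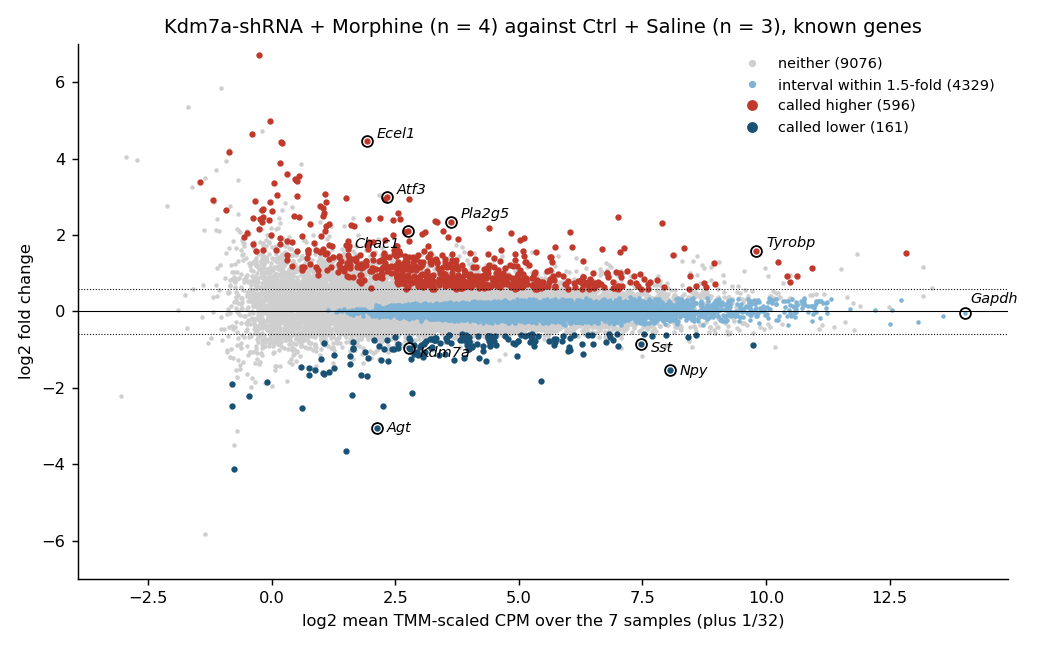
Log2 fold change of Kdm7a-shRNA + Morphine (n = 4) against Ctrl + Saline (n = 3) for 14162 known genes, over the log2 mean level of the 7 samples in CPM. Red and dark blue points are the 596 genes called higher and 161 called lower, light blue points the 4329 held within 1.5-fold (dotted lines), and circles mark named genes.

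Genes called higher were most frequent among transcripts of high GC content. Known genes were put in 4 equal groups by GC content. In the group with the highest GC content (55.2% to 75.6%), each sample's median log2 deviation from the mean of all 16 samples was -0.05, -0.17 and -0.28 in Ctrl + Saline samples 1 to 3. In the Kdm7a-shRNA + Morphine samples it was -0.01, 0.05, 0.12 and -0.01. Ctrl + Saline samples 2 and 3 thus lay lowest for GC-rich genes, and sample 1 was nearer the other groups. That group held 247 of the 596 genes called higher and 23 of the 161 called lower. The group with the lowest GC content (31.9% to 45.9%) held 81 and 48. With an offset that removes each sample's GC trend, chosen after seeing the data, 632 genes were called, 373 higher and 259 lower (59.0% higher), and 4543 were held. This offset also moved the median of all known genes by -0.09, close to the -0.10 of library size scaling, so an effect of GC content and one of recentring cannot be told apart by these counts.

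**Figure D2:**
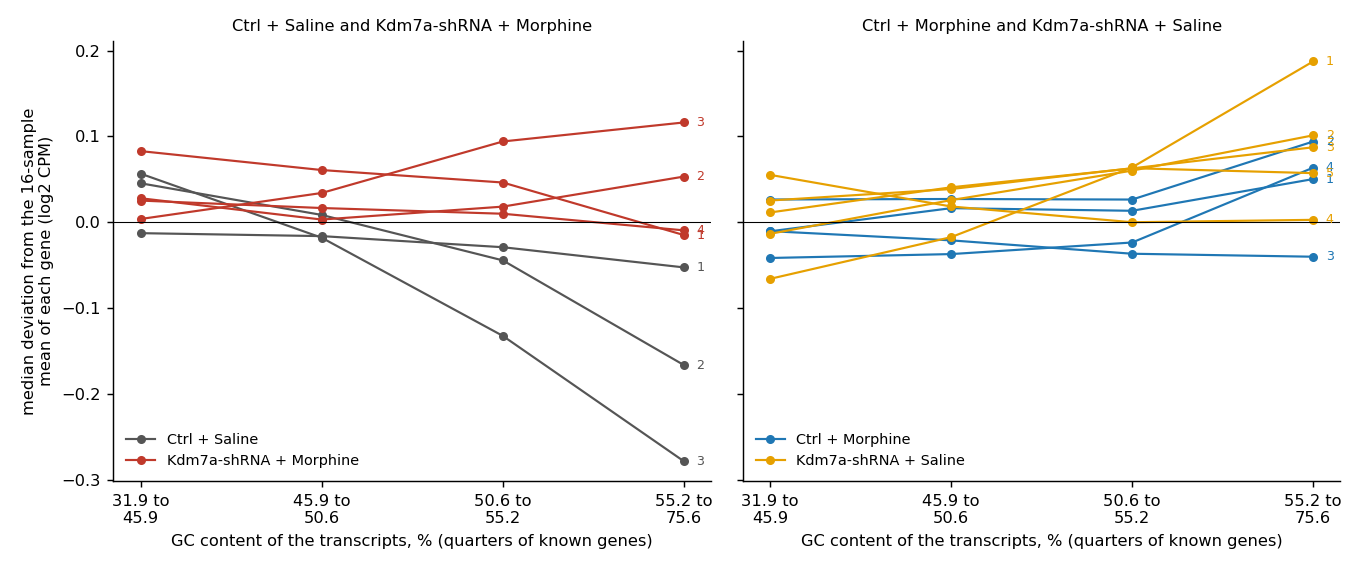
Median log2 deviation of each sample from the 16-sample mean, for 4 equal groups of the known genes by transcript GC content. Lines are samples, numbered at the right; Ctrl + Saline samples 2 and 3 fall to -0.17 and -0.28 in the group of highest GC content.

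Which genes that differed under morphine were back at the baseline level with knockdown and morphine was asked next. Under morphine with the control virus, edgeR called 0 known genes (0%) against Ctrl + Saline, while 1782 had an unadjusted p under 0.05 and DESeq2 called 179. Without Ctrl + Saline sample 1 edgeR called 209, and without Kdm7a-shRNA + Morphine sample 2, which enters the shared fit, 10. A looser rule was therefore used to sort genes: a difference between Ctrl + Morphine and Ctrl + Saline of 1.5-fold or more whose unadjusted p was under 0.05. It chose 851 known genes (6.01%), called morphine-shifted here, 689 upward and 162 downward. Both comparisons share the 3 Ctrl + Saline samples, so a gene low by chance in those samples looks shifted in both. The sorting is a description without a test.

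Of the 851 morphine-shifted genes, 36 were held at baseline in the Kdm7a-shRNA + Morphine samples, 27 of the upward and 9 of the downward ones. A larger set of 179 was called on the same side as under morphine, 171 above and 8 below the baseline. The remaining 636 were undecided. Over all known genes 30.6% were held and 5.35% called, and the shared baseline samples alone can make held genes rarer and same-side calls more frequent among shifted genes. By edgeR, 0 were called on the other side of the baseline, and 4 lay past it by 1.5-fold with an unadjusted p under 0.05; DESeq2 also called 0. Under other settings edgeR called 1 (10-count filter, GC offset, or without Kdm7a-shRNA + Morphine sample 4) or 2 (block for sample number) on the other side. The median size of the morphine difference was 0.81 on the log2 scale over all 851, and their median difference from baseline with knockdown and morphine, signed along the morphine difference, was 0.61. Median size was 0.64 under morphine for the held genes and 0.81 for those called on the same side.

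The count of shifted genes was 1303 without Ctrl + Saline sample 1. Leaving out Ctrl + Saline sample 1, 2 or 3 changed the same-side count to 420, 109 and 62. Without Kdm7a-shRNA + Morphine sample 3 it was 112. The held count was 12 without Ctrl + Saline sample 2, and 21 without Ctrl + Saline sample 3 or Kdm7a-shRNA + Morphine sample 1. Of the 179 same-side genes, 95 lay in the group of highest GC content, as did 381 of the 689 upward-shifted genes and 16 of the 36 held. Under the GC offset 663 genes were shifted, 25 of them held and 108 called on the same side.

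**Figure D3:**
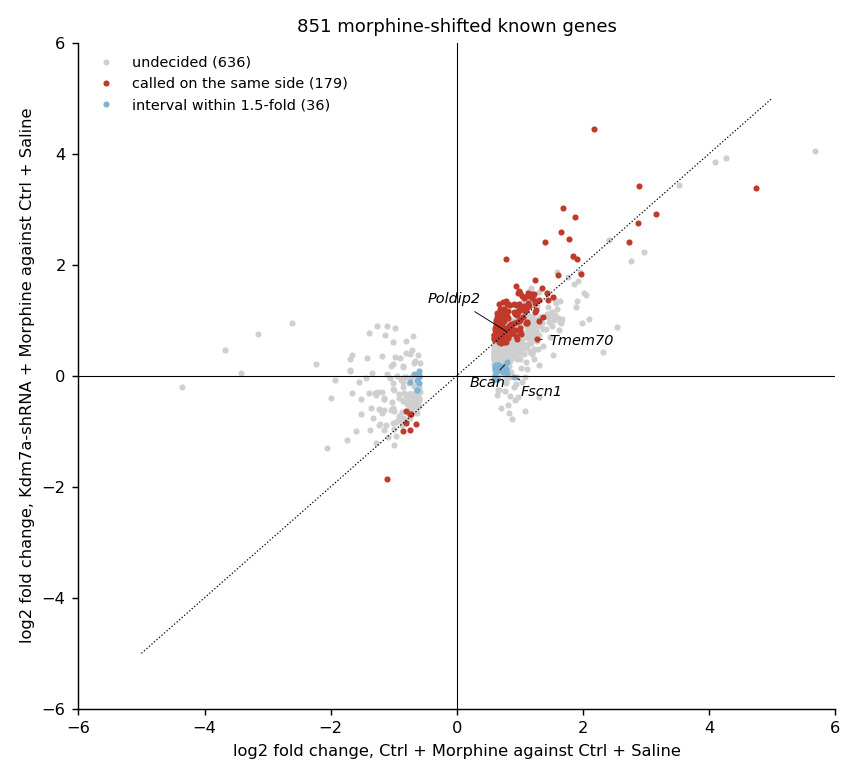
Log2 fold change of the 851 morphine-shifted known genes with the control virus (x axis, Ctrl + Morphine against Ctrl + Saline) and with knockdown and morphine (y axis, against the same Ctrl + Saline samples). Blue points are the 36 genes held at baseline, red points the 179 called on the same side, and the dotted line marks equal values on both axes.

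A direct comparison of both morphine groups, Kdm7a-shRNA + Morphine against Ctrl + Morphine, called 657 known genes (4.64%). Of the 851 shifted genes, 62 were called in it toward the baseline and 2 away from it. Since the Ctrl + Morphine samples also chose the shifted genes, a move toward the baseline is partly fixed by that choice. The 62 comprised 11 held genes, 50 undecided genes and 1 of the same-side genes.

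Fscn1 (ENSMUSG00000029581, GRCm38 chr5:142960343-142973185, plus strand) encodes fascin, which bundles actin filaments in cell protrusions. It was followed up by the study after these libraries were sequenced, so its direction here is not independent evidence. Fscn1 read 33.4, 46.5, 36.9 and 46.3 CPM in the Kdm7a-shRNA + Morphine samples and 53.5, 33.8 and 37.1 CPM in the Ctrl + Saline samples. The groups overlapped, with Ctrl + Saline sample 1 the highest of the 7. The log2 fold change was -0.02 (95% interval -0.45 to 0.41, edgeR adjusted p = 0.961), so Fscn1 was held. It turned to 0.18 without Ctrl + Saline sample 1, 0.06 without knockdown sample 1 and 0.03 without knockdown sample 3. Fscn1 was not held without Ctrl + Saline sample 1, 2 or 3 (intervals from -0.63 to 0.64 in all) or under the GC offset (-0.64 to 0.18), so its place within 1.5-fold of baseline rests on all 3 baseline samples. Ctrl + Morphine samples averaged 78.0 ± 19.8 CPM (SD, n = 4), and the Kdm7a-shRNA + Morphine level was lower than that by -0.94 (edgeR adjusted p = 0.0077), with each of its 4 samples below the Ctrl + Morphine mean.

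Other held genes were shifted by morphine in either direction. Bcan, which encodes the perineuronal matrix proteoglycan brevican, read 17.6, 25.2, 25.3 and 20.8 CPM with knockdown and morphine and 20.1, 18.4 and 18.02 CPM at baseline. Its groups overlapped through knockdown sample 1, the lowest of the 7. The difference from baseline was 0.24 (95% interval -0.08 to 0.57), against 0.80 under morphine with the control virus. Lrrn2, a leucine-rich repeat membrane protein of neurons, read 11.5, 11.2, 10.7 and 9.80 CPM with knockdown and morphine and 9.65, 9.27 and 9.54 CPM at baseline. Here each knockdown sample lay slightly above each baseline sample, by a log2 difference of 0.18. Myef2, a repressor of the myelin basic protein gene, read 15.8, 15.5, 16.1 and 18.4 CPM against 17.6, 14.2 and 15.2 CPM, with overlapping groups and a difference of 0.07. Bcan and Lrrn2 turned to -0.02 and -0.08 under the GC offset, and Myef2 to -0.03 under library size scaling. Dhx15, an RNA helicase of the spliceosome, was shifted downward by morphine with the control virus, by -0.63. It read 31.1, 38.5, 31.2 and 30.9 CPM with knockdown and morphine and 34.8, 41.8 and 42.0 CPM at baseline. Its groups overlapped through knockdown sample 2, and the difference was -0.26 (95% interval -0.54 to 0.01). With 1 sample left out, Bcan was not held in 4 of 7 fits, Lrrn2 in 5 and Dhx15 in 2, while Myef2 was held in all 7. Dhx15 was also not held under library size scaling, TMM over known genes, known genes alone and the 7 samples alone. Bcan was also not held on the 7 samples alone and with the block for sample number.

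Among the 179 genes called on the morphine side, the 5 with the smallest unadjusted p for morphine are described. Poldip2, which encodes a protein that binds DNA polymerase delta, read 101, 117, 114 and 93.5 CPM with knockdown and morphine and 79.3, 59.3 and 50.1 CPM at baseline. Its groups did not overlap, and Ctrl + Saline sample 1 lay nearest the knockdown samples. The log2 fold change was 0.76 (SE 0.14, edgeR adjusted p = 0.00244), against 0.84 under morphine with the control virus. Pdgfa, which encodes a platelet-derived growth factor chain, read 22.2, 33.2, 26.8 and 32.7 CPM against 19.8, 13.3 and 14.4 CPM at baseline. Each knockdown sample was above each baseline sample, and the difference was 0.86 (SE 0.17, edgeR adjusted p = 0.00477). Fkbp8, a mitochondrial outer membrane protein, read 247, 348, 268 and 221 CPM against 186, 146 and 128 CPM at baseline. Those groups were also separate, and the difference was 0.82 (SE 0.17, edgeR adjusted p = 0.00509). Tmem70, an assembly factor of ATP synthase, read 27.7, 53.7, 34.3 and 33.4 CPM against 28.0, 19.4 and 23.7 CPM. Knockdown sample 1 fell just under Ctrl + Saline sample 1, and sample 2 was the highest. Its level was lower than in Ctrl + Morphine samples, by -0.61 (edgeR adjusted p = 0.0496), so it is the same-side gene called toward the baseline. Tmem70 passed narrowly, at 0.66 (SE 0.21, edgeR adjusted p = 0.049), and lost its call in 13 of 17 alternatives. These were the fits without Ctrl + Saline sample 2 or 3 or Kdm7a-shRNA + Morphine sample 2 or 3 (0.43 to 0.70), and every change of scaling, filter or fit apart from DESeq2 (0.56 to 0.66). Ssc4d, of the scavenger receptor cysteine-rich family, had 4, 11, 2 and 1 reads with knockdown and morphine and 0, 1 and 0 at baseline. That gave a ratio of 13.4 over 18 and 1 reads, with a 95% counting interval of 2.12 to 560 that covers counting error only. Its call was lost without any single Ctrl + Saline sample or without Kdm7a-shRNA + Morphine sample 1 or 2, at adjusted p of 0.0521 to 0.136, and also under the GC offset and with known genes alone.

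Genes away from baseline were also named without regard to morphine; of these, Kdm4b, Chac1, Shmt2, Ecel1, Rell2 and Grin1 were morphine-shifted too. The groups did not overlap in any of the 10 called higher and 10 called lower genes with the smallest adjusted p, a property partly fixed by choosing them so. The share of all known genes with separate groups is not given here. Separate groups, here and for single genes, are therefore a description without a background. The Kdm7a-shRNA + Saline samples give the level under knockdown without morphine. In that group against the same Ctrl + Saline samples, 1697 known genes were called (11.98%). Between Kdm7a-shRNA + Morphine and Kdm7a-shRNA + Saline, 1 was called (0.00706%): Slc25a12, a mitochondrial aspartate-glutamate carrier, named after its values were seen. Slc25a12 was higher with morphine by 1.48 (edgeR adjusted p = 0.0394), at 151.9 ± 26.1 CPM (SD, n = 4) against 54.5 ± 13.5 CPM (SD, n = 5). All 4 of its samples, at 177, 165, 117 and 149 CPM, lay above that lower mean. Against the Ctrl + Saline samples, at 105, 190 and 156 CPM, it was held (0.01, 95% interval -0.50 to 0.52). The Kdm7a-shRNA + Saline mean of Slc25a12 lay under each Ctrl + Saline sample. Its test against baseline in that group, its Ctrl + Morphine level and its call under other settings are not given here.

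Some genes of the integrated stress response were higher. This response lowers general translation while the transcription factors ATF4, ATF3 and DDIT3 induce genes of amino acid supply and redox balance. Of 25 tested genes of that list, 8 were called higher, beside 4.21% of all known genes, 0 lower (DESeq2 also called 0 lower) and 2 held. An unadjusted p under 0.05 in either direction was found for 13 of them, beside 22.5% of all known genes. Its median was 0.76, beside 0.11 for all known genes, and was 0.47 without Ctrl + Saline sample 2 and on the 7 samples alone. With the 10-count filter it was 0.39, with 6 of 20 called.

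Chac1 (ENSMUSG00000027313), an enzyme that degrades glutathione, read 7.51, 12.9, 11.6 and 8.19 CPM with knockdown and morphine and 2.38, 2.05 and 2.65 CPM at baseline. Every knockdown sample lay well above every baseline sample. The log2 fold change was 2.10 (SE 0.25, edgeR adjusted p = 0.000222). Atf3, a transcription factor induced by stress and nerve injury, read 6.59, 5.396, 14.005 and 5.90 CPM against 1.19, 1.37 and 0.397 CPM at baseline. Sample 3 was the highest, and the other knockdown samples also lay above each baseline sample. The difference was 2.98 (SE 0.43, edgeR adjusted p = 0.000509). Shmt2, a mitochondrial enzyme that moves one-carbon units from serine to folate, read 44.6, 30.8, 45.4 and 18.8 CPM against 14.8, 10.6 and 8.74 CPM. Sample 4 came nearest to the baseline samples, and the groups did not overlap. The difference was 1.62 (SE 0.27, edgeR adjusted p = 0.00125). Mthfd2, which acts next in the mitochondrial folate pathway, read 13.5, 11.99, 15.6 and 8.32 CPM against 4.10, 4.49 and 6.62 CPM. Its groups were separate, at a difference of 1.29 (SE 0.26, edgeR adjusted p = 0.00423). The other called members, named after their values were seen, were Ddit3 (0.89), Sesn2 (1.64), Psat1 (0.86) and Slc3a2 (0.80), each above baseline in 4 of 4 samples. Atf4 itself averaged 72.6 and 53.1 CPM, a log2 difference of 0.45 that was under 1.5-fold (edgeR adjusted p = 0.0146).

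Side by side, Chac1 averaged 4.01 ± 0.992 CPM (SD, n = 4) in Ctrl + Morphine and 11.2 ± 1.67 CPM (SD, n = 5) in Kdm7a-shRNA + Saline samples. Atf3 averaged 1.34 ± 0.386 and 9.87 ± 2.50 CPM in the same groups. Both groups with the knockdown virus were high for these genes, and the control virus with morphine lay near baseline for Atf3. In the Kdm7a-shRNA + Saline comparison 14 of the 25 list genes were called, beside 11.98% of all known genes. Leaving out any 1 of the 7 samples gave 8 or 9 genes called higher in the list.

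The list's called members include genes with a C/EBP-ATF element in the promoter, so promoter sequences were searched for TGATGNAA on both strands. Of 27025 genes with a promoter of 300 bases in the RefSeq table (GRCm38.p6, 250 bases before to 50 after the start), 1219 held it (4.51%). Among the tested list genes with a promoter it was found in 7 of 23 (30.4%), and among those called higher in 2 of 8, Atf3 and Chac1. The list was built from known targets of this response, so a high share was likely from the choice of genes. In 12 cytosolic aminoacyl-tRNA synthetase genes with a promoter, which charge tRNAs with amino acids, 5 held it (41.7%), Aars at 2 places. The promoters of Atf3 (chr1:191183284-191183583, minus strand), Chac1 (chr2:119350992-119351291, plus strand) and Aars (chr8:111033592-111033891, plus strand) are shown because these called genes carry the element, in capitals as its reverse complement. No other motif was searched. A match describes letters only.
Atf3: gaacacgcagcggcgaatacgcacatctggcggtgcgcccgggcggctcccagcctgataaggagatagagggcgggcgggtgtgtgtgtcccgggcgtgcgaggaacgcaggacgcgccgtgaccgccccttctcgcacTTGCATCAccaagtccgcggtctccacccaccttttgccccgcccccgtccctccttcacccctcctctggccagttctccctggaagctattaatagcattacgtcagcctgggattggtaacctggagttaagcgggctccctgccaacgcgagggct
Chac1: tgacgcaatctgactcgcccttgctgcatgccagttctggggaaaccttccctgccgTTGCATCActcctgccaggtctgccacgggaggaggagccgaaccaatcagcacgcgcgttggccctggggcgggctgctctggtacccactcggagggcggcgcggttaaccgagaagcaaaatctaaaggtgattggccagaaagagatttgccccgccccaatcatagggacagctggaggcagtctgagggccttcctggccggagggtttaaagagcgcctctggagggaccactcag
Aars: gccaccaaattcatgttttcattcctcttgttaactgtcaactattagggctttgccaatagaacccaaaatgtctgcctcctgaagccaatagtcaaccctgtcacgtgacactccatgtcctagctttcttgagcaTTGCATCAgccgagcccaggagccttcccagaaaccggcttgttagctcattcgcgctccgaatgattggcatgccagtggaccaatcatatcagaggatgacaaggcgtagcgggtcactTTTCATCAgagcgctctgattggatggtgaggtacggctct

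Aars, which encodes alanyl-tRNA synthetase, was the 1 gene called of 20 tested synthetase genes, of which 10 were held (median 0.23), beside 4.21% higher and 30.6% held of all known genes. In this list 2 were called without Ctrl + Saline sample 1 or 3. Aars read 81.2, 79.6, 94.3 and 77.2 CPM with knockdown and morphine and 55.2, 53.1 and 50.5 CPM at baseline. The groups were well apart, with a difference of 0.65 (SE 0.11, edgeR adjusted p = 0.00189). It slipped under 1.5-fold without Kdm7a-shRNA + Morphine sample 3 (0.58), under library size scaling (0.55), TMM over known genes (0.57) and the GC offset (0.53), and with known genes alone (0.57). Among 20 endoplasmic reticulum chaperones and folding enzymes, 2 were called higher and 7 held (median 0.16). Called were 5 without Kdm7a-shRNA + Morphine sample 4, 4 without Ctrl + Saline sample 1, 1 without Kdm7a-shRNA + Morphine sample 1 or 3 and 0 without Ctrl + Saline sample 2 or 3, and the median was 0.01 without Ctrl + Saline sample 2. Herpud1, of the degradation machinery at that membrane, read 107, 102, 93.3 and 73.7 CPM against 77.7, 43.3 and 54.4 CPM. Knockdown sample 4 lay under Ctrl + Saline sample 1, and the difference was 0.69 (SE 0.17, edgeR adjusted p = 0.0154). P4hb, a protein disulfide isomerase, read 42.0, 33.8, 52.1 and 29.5 CPM against 27.8, 18.7 and 27.02 CPM. Its groups were separate by a narrow gap, at a difference of 0.69 (SE 0.20, edgeR adjusted p = 0.0325). Herpud1 was not called without Ctrl + Saline sample 2 or 3 (0.51 and 0.63), with known genes alone or on the 7 samples alone. P4hb was not called without Ctrl + Saline sample 2 or 3 or Kdm7a-shRNA + Morphine sample 1 or 3 (0.52 to 0.76), nor under library size scaling, TMM over known genes, known genes alone, the 10-count filter, the 7 samples alone or the GC offset, 10 of 17 alternatives.

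**Figure D4:**
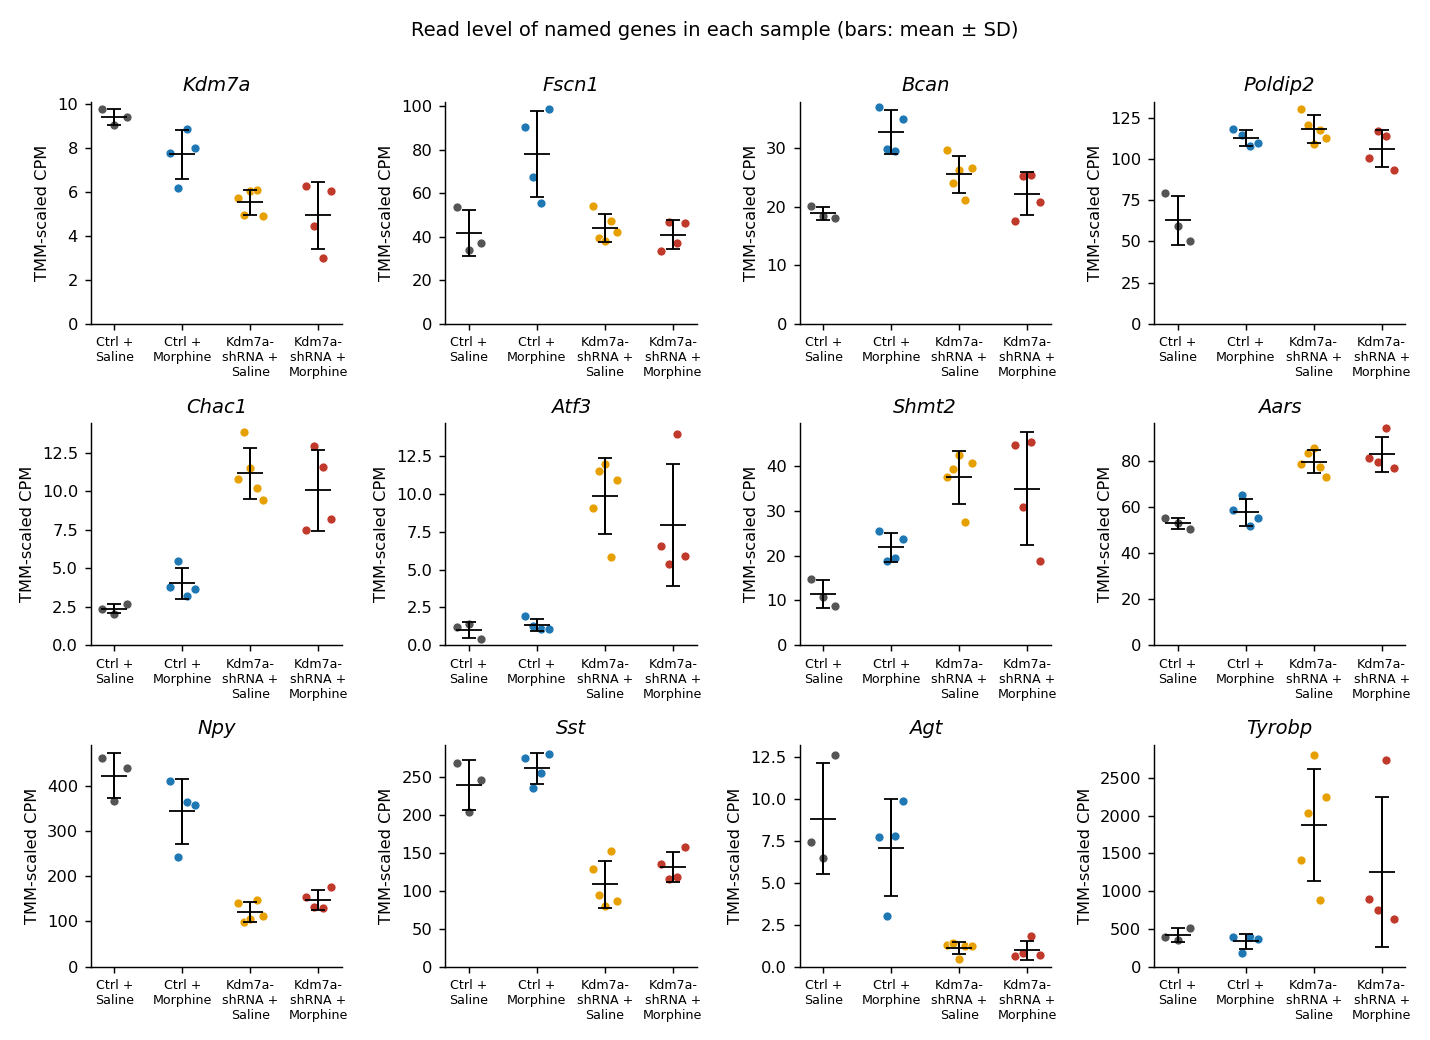
Level of 12 named genes in CPM in each of the 16 samples, by group, with bars for the mean and SD. Atf3, Chac1, Npy, Sst and Agt lie at similar levels in both knockdown groups, and Fscn1 lies at the Ctrl + Saline level in both.

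The other genes with the smallest adjusted p among those higher spanned several functions. Ecel1, a membrane metallopeptidase of neurons, read 5.06, 7.19, 7.65 and 5.502 CPM with knockdown and morphine and 0, 0.0976 and 0.795 CPM at baseline. Baseline reads numbered 0, 1 and 6 in the 3 samples, so the fitted difference of 4.45 (SE 0.60, edgeR adjusted p = 0.000322) has a wide interval, 3.20 to 5.70. All 4 knockdown samples were above the baseline samples. Pla2g5, a secreted phospholipase A2, read 20.5, 15.8, 26.6 and 11.7 CPM against 5.15, 3.71 and 2.25 CPM. Its groups did not overlap, and the difference was 2.33 (SE 0.35, edgeR adjusted p = 0.000644). Tfrc, the transferrin receptor that takes up iron, read 17.8, 17.0, 21.9 and 20.8 CPM against 7.53, 11.3 and 9.41 CPM. The groups were separate, at a difference of 1.04 (SE 0.16, edgeR adjusted p = 0.00105). Slc25a39, which carries glutathione into mitochondria, read 25.4, 31.9, 36.4 and 25.2 CPM against 12.3, 15.7 and 11.9 CPM. Again no samples overlapped, at a difference of 1.16 (SE 0.19, edgeR adjusted p = 0.00119). Also among these genes were Arl2, a small GTPase of tubulin folding (0.82), Rell2, of the RELT receptor family (1.21), and Hdgf, a heparin-binding growth factor (0.71). Hdgf was under 1.5-fold with the GC offset (0.54). Arl2 overlaps Batf2 and Rell2 overlaps Fchsd1 on the opposite strand.

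Several neuropeptide precursors were below the baseline. Of 21 tested, 7 were called lower, 0 higher (DESeq2 also called 0 higher) and 3 held. An unadjusted p under 0.05 in either direction was found for 9 of them, beside 22.5% of all known genes. The median was -0.42, beside 0.11 for all known genes, of which 1.14% were called lower. Called lower were 4 without Ctrl + Saline sample 3 and 3 on the 7 samples alone, where 18 were tested. The Kdm7a-shRNA + Saline comparison, with the same baseline samples, called 8 of them, at a median of -0.56, beside 11.98% of all known genes.

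Npy (ENSMUSG00000029819), the precursor of neuropeptide Y, read 154, 131, 129 and 175 CPM with knockdown and morphine and 461, 367 and 440 CPM at baseline. Even the highest knockdown sample lay far below the lowest baseline sample. Its log2 fold change was -1.52 (SE 0.18, edgeR adjusted p = 0.0002). Sst, the somatostatin precursor, read 135, 115, 117 and 157 CPM against 267, 203 and 246 CPM. Those groups were also separate, with a difference of -0.86 (SE 0.19, edgeR adjusted p = 0.00669). Cort, the precursor of the related cortistatin, read 5.82, 9.11, 6.87 and 10.2 CPM against 19.2, 16.3 and 22.7 CPM. No sample overlapped, and the difference was -1.27 (SE 0.25, edgeR adjusted p = 0.00448). Gal, the galanin precursor, had 0, 1, 1 and 0 reads with knockdown and morphine and 5, 15 and 12 reads at baseline. That is a ratio of 0.0467 over 2 and 32 reads, with a 95% counting interval of 0.00542 to 0.183 that covers counting error only. Vip, the vasoactive intestinal peptide precursor, read 50.1, 42.3, 27.2 and 65.5 CPM against 77.6, 79.7 and 108 CPM. Knockdown sample 4 came nearest to the baseline samples, and the difference was -0.94 (SE 0.22, edgeR adjusted p = 0.0116). It was not called without Ctrl + Saline sample 3 (-0.78) or on the 7 samples alone. The other called members, named after their values were seen, were Grp (-1.29) and Trh (-1.67), below baseline in 4 of 4 samples.

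Npy averaged 344 ± 72.1 CPM (SD, n = 4) in Ctrl + Morphine and 121 ± 21.7 CPM (SD, n = 5) in Kdm7a-shRNA + Saline samples. For Sst those means were 261 ± 20.6 and 108 ± 30.6 CPM. Levels were low in both knockdown groups and near the baseline in Ctrl + Morphine samples.

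Among interneuron and GABA synthesis genes calls were found in both directions. Of 19 tested, 3 were called higher, 3 lower and 2 held, at a median of -0.41, beside 4.21% higher, 1.14% lower and 30.6% held of all known genes. The calls above baseline were 0 without Ctrl + Saline sample 3 and in the test of known genes alone, and 1 under library size scaling and under the GC offset. They were also 1 without Ctrl + Saline sample 1 or Kdm7a-shRNA + Morphine sample 1 and on the 7 samples alone. The calls below baseline were 2 without Ctrl + Saline sample 3, 5 without Kdm7a-shRNA + Morphine sample 4 and 6 with the block for sample number. The median was -0.08 without Kdm7a-shRNA + Morphine sample 4 and -0.06 with the 10-count filter. It was -0.21 without Ctrl + Saline sample 2 or Kdm7a-shRNA + Morphine sample 3. The lower ones were Npy, Sst and Vip, described above and shared with the neuropeptide list. Pvalb, the calcium buffer of fast-spiking interneurons, and Slc32a1, the vesicular GABA transporter, were among those called higher, at 0.78 each, and are named after their values were seen. Gad1, the main enzyme of GABA synthesis, averaged 134 and 125 CPM and was held (0.10).

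Most receptor and synapse genes were undecided. Of 22 glutamate receptor subunits, 1 was called higher, 1 lower and 2 held (median -0.32), beside 5.35% called of all known genes. Called lower were 4 without Kdm7a-shRNA + Morphine sample 4. Grin1, the subunit present in every NMDA receptor, read 151, 157, 233 and 199 CPM against 138, 95.8 and 93.1 CPM at baseline. The groups were separate, at 0.77 (SE 0.22, edgeR adjusted p = 0.0338). Grik1, a kainate receptor subunit, read 7.05, 6.71, 4.55 and 4.96 CPM against 14.1, 12.8 and 9.54 CPM. It was lower in each knockdown sample, at -1.07 (SE 0.23, edgeR adjusted p = 0.00647). Grin1 was not called without Ctrl + Saline sample 2 or 3 or Kdm7a-shRNA + Morphine sample 3 (0.63 to 0.68), under the GC offset (0.55), with known genes alone or on the 7 samples alone. Grin2a, the NMDA receptor subunit that the study followed at the protein level, read 21.6, 14.3, 13.7 and 19.7 CPM against 19.3, 29.2 and 24.0 CPM. Its groups overlapped, and the difference of -0.49 was undecided (95% interval -0.95 to -0.03, edgeR adjusted p = 0.155). Of 26 postsynaptic scaffold and adhesion genes, 1 was called lower, 0 higher (5 had an unadjusted p under 0.05, and DESeq2 called 1 higher) and 8 held, at a median of -0.06. Called lower were 3 without Kdm7a-shRNA + Morphine sample 4, where the median was -0.21. The median was 0.07 without sample 3 of that group, and 3 genes were held without Ctrl + Saline sample 1 or 3. Homer2, a scaffold for metabotropic glutamate receptors, read 5.06, 6.35, 4.04 and 6.71 CPM against 13.1, 13.2 and 10.1 CPM. It was lower in each knockdown sample, at -1.14 (SE 0.32, edgeR adjusted p = 0.0297). Without any single Ctrl + Saline sample or Kdm7a-shRNA + Morphine sample 1 or 3 (-1.26 to -0.999), or with known genes alone, Homer2 was not called. Shank1, a scaffold of the postsynaptic density, read 122, 144, 125 and 176 CPM against 118, 126 and 115 CPM. Its groups overlapped through Ctrl + Saline sample 2, and its 0.24 (95% interval -0.15 to 0.63) was undecided and turned to -0.02 under the GC offset.

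Lists of receptors and activity genes gave counts of 0 in both directions by edgeR and by DESeq2, beside 5.35% of all known genes called by edgeR. They were 7 opioid receptor and opioid peptide genes (1 with an unadjusted p under 0.05, median 0.03), 12 GABA-A receptor subunits (0, median -0.12) and 23 immediate early genes, which respond to neuronal activity (3, median 0.12). Of all known genes, 22.5% had an unadjusted p under 0.05. For the immediate early genes, 3 were called higher without Ctrl + Saline sample 1, 1 higher without Kdm7a-shRNA + Morphine sample 2 and 3 lower without Kdm7a-shRNA + Morphine sample 4, where the median was -0.27. Oprm1, the mu opioid receptor, singled out for its role, averaged 1.12 ± 1.66 and 2.16 ± 1.06 CPM (SD, n = 4 and 3). Its interval ran from -2.89 to 1.03, and it was undecided. Of the 4 genes named in the text of the study besides Kdm7a, 0 were called by either tool (1 had an unadjusted p under 0.05) and 2, Fscn1 and Gapdh, were held. Without Ctrl + Saline sample 1, 2 or 3 the held count of these genes was 1.

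Of 23 tested genes of actin bundling and spine actin, 1 was called higher, 1 lower and 8 held (median 0.24), beside 5.35% called of all known genes. An unadjusted p under 0.05 was found for 8 of them, beside 22.5% of all known genes. Called higher were 3 without Ctrl + Saline sample 1 and 0 without Ctrl + Saline sample 2 or 3 or Kdm7a-shRNA + Morphine sample 3. The held count was 5 without Ctrl + Saline sample 1, and the median was 0.12 without Kdm7a-shRNA + Morphine sample 4. Arpc5, a subunit of the Arp2/3 complex that branches actin, read 303, 302, 353 and 287 CPM against 454, 449 and 538 CPM at baseline. It was lower in each knockdown sample, at -0.63 (SE 0.12, edgeR adjusted p = 0.00334). Actn4, an actin crosslinker, read 61.0, 51.2, 65.5 and 51.8 CPM against 46.5, 34.9 and 27.2 CPM. It was higher in each knockdown sample, at 0.66 (SE 0.17, edgeR adjusted p = 0.018). Arpc5 slipped under 1.5-fold without Ctrl + Saline sample 3 (-0.55). Actn4 was not called without Ctrl + Saline sample 2 or 3 or Kdm7a-shRNA + Morphine sample 3 (0.49 to 0.64), under library size scaling (0.57) or the GC offset (0.50), with known genes alone or on the 7 samples alone. Of 19 genes of cortical layers and projection neurons, 1 was called higher, 0 lower (2 had an unadjusted p under 0.05, and DESeq2 called 0 lower) and 3 held, at a median of -0.16. With 1 sample left out, 0 to 2 of them were held, and the median ran from -0.18 to -0.08. Cux1, a transcription factor of upper layers, read 44.4, 28.2, 45.8 and 33.8 CPM against 25.4, 24.6 and 21.6 CPM. Each knockdown sample was above each baseline sample, at 0.67 (SE 0.18, edgeR adjusted p = 0.0206). Cux1 was not called without Ctrl + Saline sample 3 or Kdm7a-shRNA + Morphine sample 1 or 3 (0.57 to 0.60), under library size scaling (0.57) or the GC offset (0.55), with known genes alone or on the 7 samples alone.

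The other genes with the smallest adjusted p among those lower are given next. Agt, the angiotensinogen precursor made by astrocytes, read 0.613, 0.839, 1.804 and 0.671 CPM with knockdown and morphine and 7.40, 6.44 and 12.6 CPM at baseline. All knockdown samples were far below, at -3.05 (SE 0.42, edgeR adjusted p = 0.000399). Cdkn1c, an imprinted inhibitor of cyclin-dependent kinases, read 5.36, 5.64, 3.87 and 6.71 CPM against 11.4, 14.2 and 11.3 CPM. No samples overlapped, and the difference was -1.20 (SE 0.19, edgeR adjusted p = 0.00108). Mc4r, the melanocortin receptor, read 1.07, 2.04, 1.72 and 2.28 CPM against 5.68, 4.98 and 6.49 CPM. Its groups were separate, at -1.66 (SE 0.28, edgeR adjusted p = 0.00132). Ryr1, a calcium release channel, read 7.81, 6.47, 6.44 and 9.66 CPM against 15.5, 19.0 and 14.3 CPM. The groups were again apart, at -1.11 (SE 0.19, edgeR adjusted p = 0.00151). Beside Npy, the remaining 5 were Arl5c, an ARF-like GTPase (-1.81), Hist3h2a, a histone H2A gene (-1.03), Tmem245 (-0.90), Spag5, a mitotic spindle protein (-2.13), and Gm9817, a predicted gene (-3.65). Hist3h2a overlaps Trim17 on the same strand. Agt, Cdkn1c, Mc4r and Ryr1 averaged 7.08, 13.1, 5.77 and 16.9 CPM in Ctrl + Morphine and 1.11, 5.80, 1.99 and 5.80 CPM in Kdm7a-shRNA + Saline samples.

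Genes of basic metabolism lay mainly at the baseline level. Of 50 nuclear genes of the respiratory chain and ATP synthase, 42 were held, and 30 of 31 proteasome subunits were, beside 30.6% of all known genes. The share of all known genes was not matched to these lists for read level or interval width. By edgeR and by DESeq2 0 of either list were called, with 4 and 3 at an unadjusted p under 0.05, and the medians were -0.01 and -0.06. Of 74 cytosolic ribosomal protein genes, 56 were held and 0 called by either tool. An unadjusted p under 0.05 was found for 45 of them, beside 22.5% of all known genes. In that list 73 of 74 values were positive, at a median of 0.28 (0.18 under library size scaling). Without Ctrl + Saline sample 1 edgeR called 4 ribosomal and 2 respiratory genes higher, and without Ctrl + Saline sample 2 or Kdm7a-shRNA + Morphine sample 1, 2 or 4 it called 1 ribosomal gene higher. The block for sample number also gave 1 ribosomal gene called higher. Ribosomal protein genes have many processed pseudogenes that can share reads. Gapdh, a glycolytic enzyme often used as a reference, read 16981, 16523, 15365 and 17539.9 CPM against 15675, 17621 and 17549 CPM. Its groups overlapped, and it was held at -0.03 (95% interval -0.28 to 0.23), turning to 0.00 without Ctrl + Saline sample 2 and 0.01 without Kdm7a-shRNA + Morphine sample 3.

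**Figure D5:**
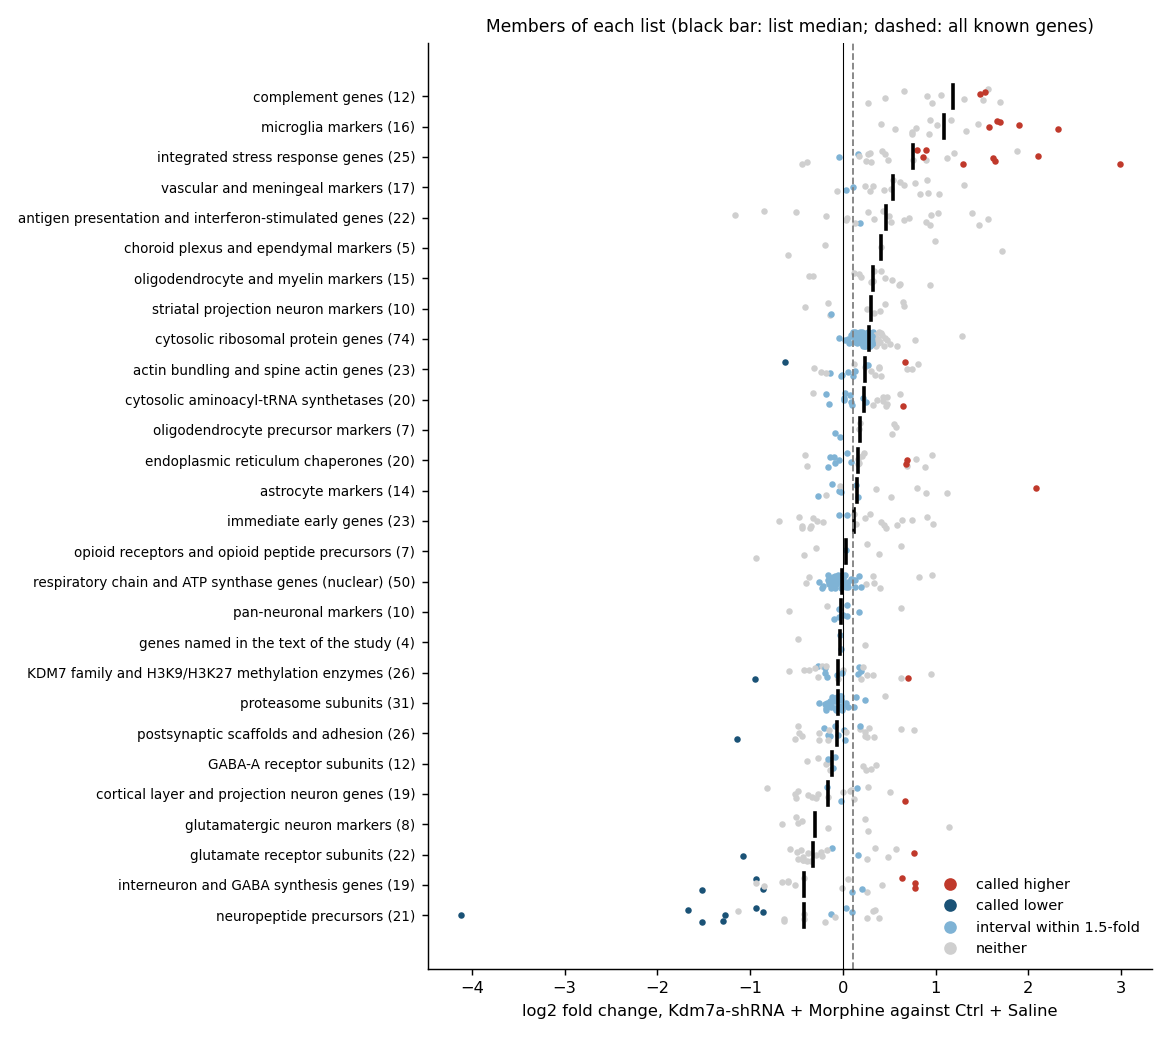
Log2 fold change against Ctrl + Saline of the tested members of the 28 gene lists (number tested in brackets), with a black bar at each list's median and a dashed line at the median of all known genes, 0.11. Complement, microglia and integrated stress response lists have the highest medians, 1.18, 1.09 and 0.76, and the interneuron and neuropeptide lists the lowest, -0.41 and -0.42.

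Some microglia and complement genes were called higher, and these calls depended on single samples. Of 16 microglia markers, 5 were called higher, 0 lower (11 had an unadjusted p under 0.05, and DESeq2 called 0 lower) and 0 held, at a median of 1.09. Of all known genes, 4.21% were called higher, 30.6% were held and 22.5% had an unadjusted p under 0.05. Their summed level was 14200, 14819, 33441 and 8427 CPM in the Kdm7a-shRNA + Morphine samples and 12272, 3880.2 and 7452 CPM in the Ctrl + Saline samples. The sums overlapped, since knockdown sample 4 lay under Ctrl + Saline sample 1. Apoe, the most abundant marker, which astrocytes also express, made up much of each sum, at 9648, 11234, 22099 and 5826 CPM against 10000.0, 1865 and 4483 CPM. Without Kdm7a-shRNA + Morphine sample 3 edgeR called 0 of the 16, with 5 at an unadjusted p under 0.05 and a median of 0.53. It also called 0 without Ctrl + Saline sample 2 and on the 7 samples alone, 1 without Ctrl + Saline sample 1, 2 without Ctrl + Saline sample 3 and 10 without Kdm7a-shRNA + Morphine sample 4. The sum averaged 26149.6 CPM in Kdm7a-shRNA + Saline samples, where 14 of the 16 were called against the same baseline (11.98% of all known genes), and 11132 CPM in Ctrl + Morphine samples.

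Tyrobp, a signalling adaptor of microglia, read 895, 748, 2735 and 632 CPM with knockdown and morphine and 393, 348 and 517 CPM at baseline. Sample 3 was higher than the other 3 knockdown samples added together, and the groups did not overlap. The log2 fold change was 1.58 (SE 0.46, edgeR adjusted p = 0.0323), and 0.86 without sample 3. Cst7, a cystatin of activated microglia, read 283, 168, 881 and 126 CPM against 57.1, 47.7 and 114 CPM. Its difference was 2.33 (SE 0.62, edgeR adjusted p = 0.0216) and 1.40 without sample 3, again with sample 3 the highest. Lpl, lipoprotein lipase, read 11.95, 13.2, 41.5 and 12.2 CPM against 3.44, 4.98 and 7.68 CPM. Its difference was 1.90 (SE 0.48, edgeR adjusted p = 0.016) and 1.22 without sample 3, above baseline in 4 of 4 samples. Cd68, a lysosomal protein of phagocytes, read 77.7, 56.1, 211 and 37.0 CPM against 25.8, 30.2 and 32.9 CPM. It differed by 1.69 (SE 0.50, edgeR adjusted p = 0.0356) and by 0.94 without sample 3, with separate groups. Trem2, a lipid-sensing receptor of microglia named after its values were seen, was the other called marker, at 1.66. Calls of Tyrobp, Cst7, Lpl and Cd68 were lost without sample 3 and also without Ctrl + Saline sample 1 or sample 2 (1.47 to 2.14). Tyrobp and Cd68 were also not called without Ctrl + Saline sample 3 (1.75 and 1.76), nor Cd68 without Kdm7a-shRNA + Morphine sample 1 (1.78). All 4 lost their calls on the 7 samples alone, all but Lpl with known genes alone, Tyrobp and Cd68 with the 10-count filter, and Tyrobp under the GC offset. In the whole list 1 marker was called with known genes alone, 2 with the 10-count filter and 3 under the GC offset.

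Of 12 complement genes, 2 were called higher, 0 lower (7 had an unadjusted p under 0.05, and DESeq2 called 4 higher and 0 lower) and 0 held, at a median of 1.18. Of all known genes, 4.21% were called higher, 30.6% were held and 22.5% had an unadjusted p under 0.05. C1qb, a chain of the first complement component made by microglia, read 329, 295, 771 and 149 CPM against 146, 116 and 152 CPM. Knockdown sample 4 lay among the baseline samples, and the difference was 1.48 (SE 0.47, edgeR adjusted p = 0.0469). Serping1, the inhibitor of that component, read 24.7, 22.5, 31.6 and 10.1 CPM against 10.6, 8.88 and 3.58 CPM. Sample 4 again lay within the baseline range, and the difference was 1.53 (SE 0.43, edgeR adjusted p = 0.0285). C1qb was not called without any 1 of the 7 samples apart from Kdm7a-shRNA + Morphine sample 4, at 0.90 to 1.59, nor under library size scaling, TMM over known genes, known genes alone, the 10-count filter, the 7 samples alone or the GC offset. Serping1 was not called without Ctrl + Saline sample 2 or 3 or Kdm7a-shRNA + Morphine sample 1 or 3, at 1.19 to 1.66, with known genes alone or on the 7 samples alone. Without Kdm7a-shRNA + Morphine sample 3 edgeR called 0 complement genes, with 3 at an unadjusted p under 0.05 and a median of 0.72. It also called 0 without Ctrl + Saline sample 2 or 3 or Kdm7a-shRNA + Morphine sample 1, with known genes alone and on the 7 samples alone, 1 without Ctrl + Saline sample 1 and 5 without Kdm7a-shRNA + Morphine sample 4 (median 1.45). Of 22 genes of antigen presentation and interferon response, 0 were called by edgeR or DESeq2, 5 had an unadjusted p under 0.05 and 1 was held (median 0.47). The median was 0.12 without Kdm7a-shRNA + Morphine sample 3 and 0.72 without sample 4, where 2 were called higher.

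Markers of other cells and of tissue next to the mPFC were checked as whole lists. Astrocyte markers gave 1 called higher, 0 lower (4 with an unadjusted p under 0.05, and 2 higher and 0 lower by DESeq2) and 6 held of 14 (median 0.15), beside 4.21% higher and 30.6% held of all known genes. Called higher were 2 without Kdm7a-shRNA + Morphine sample 2 or 4, and the median was 0.02 without sample 3 of that group. Vim, an intermediate filament of reactive astrocytes and of vessels, read 73.5, 62.0, 211 and 43.5 CPM against 31.5, 20.8 and 17.2 CPM. Sample 3 was the highest, and no groups overlapped, at 2.08 (SE 0.50, edgeR adjusted p = 0.0127). Vim was not called without Ctrl + Saline sample 2 or 3 (2.01 and 1.90), and its difference ran from 1.37 to 2.34 over 17 alternatives. Summed astrocyte markers, of which Aldoc was the most abundant, were 10993, 12243, 12224 and 10446 CPM with knockdown and morphine and 11374, 12931 and 13745 CPM at baseline.

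By edgeR 0 markers were called of 15 oligodendrocyte and myelin genes (1 with an unadjusted p under 0.05, median 0.33), 7 oligodendrocyte precursor genes (0, median 0.19) and 17 vascular and meningeal genes (5, median 0.55). DESeq2 called 1, 0 and 0 of them. Of all known genes, 5.35% were called by edgeR and 22.5% had an unadjusted p under 0.05. With the block for sample number, 1 myelin and 2 vascular genes were called higher. Without Kdm7a-shRNA + Morphine sample 4 edgeR called 1 myelin and 1 vascular gene higher, and without Ctrl + Saline sample 1 it called 1 vascular gene higher. The medians of the 3 lists ran from 0.17 to 0.49, 0.11 to 0.44 and 0.25 to 0.78 with 1 sample left out. Summed myelin markers, led by Mbp, were 20273, 16838, 13328 and 9119 CPM with knockdown and morphine and 13278, 10877 and 7692 CPM at baseline. These sums overlapped, with sample 1 the highest. Vascular markers, led by Ly6c1, summed to 341, 335, 514 and 277 CPM against 317, 294 and 224 CPM, with sample 3 the highest. Precursor markers, led by Gpr17, summed to 47.3, 45.7, 57.5 and 37.2 CPM against 45.1, 39.0 and 41.5 CPM. The part of these cell types in the gene differences was not tested.

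Pan-neuronal markers were mostly held, and glutamatergic neuron markers were undecided. Of 10 pan-neuronal markers 7 were held, and of 8 glutamatergic neuron markers 0 were, beside 30.6% of all known genes. Both tools called 0 in either list, beside 5.35% of all known genes by edgeR, and 2 in each had an unadjusted p under 0.05. The medians of the 2 lists were -0.02 and -0.30, and ran from -0.14 to 0.08 and from -0.41 to -0.11 with 1 sample left out. Without Ctrl + Saline sample 1, 1 pan-neuronal marker was called higher. Without Kdm7a-shRNA + Morphine sample 4, 1 was called higher and 1 lower in that list, and 1 lower among glutamatergic markers. Held pan-neuronal markers numbered 4 without Ctrl + Saline sample 2 or 3 or Kdm7a-shRNA + Morphine sample 4. Pan-neuronal sums, led by Syt1, were 3744, 3402, 2836 and 4642 CPM with knockdown and morphine and 3648, 4310.1 and 3704 CPM at baseline, so sample 3 was the lowest of the 7. Syt1 itself was held at 0.01 (95% interval -0.45 to 0.46) and turned to -0.09 under library size scaling. It was not held without Ctrl + Saline sample 2 or 3 or Kdm7a-shRNA + Morphine sample 4. Glutamatergic sums were 1839, 3229, 1787 and 2687 CPM against 1705, 2197 and 1557 CPM, led by Nrgn. Nrgn, a calmodulin-binding protein of dendrites, read 898, 2323, 911 and 1180.3 CPM against 577, 725 and 501 CPM. Its groups did not overlap, and it missed the adjusted threshold, at 1.14 (SE 0.40, edgeR adjusted p = 0.0695).

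Choroid plexus markers had few reads, and striatal markers more. Of 8 choroid plexus and ependymal markers, 5 averaged under 1 CPM (Folr1, Otx2, Clic6, Kl and Kcnj13), and the sum was 10.4 to 11.7 CPM in the knockdown samples and 7.15 to 9.76 CPM at baseline, led by Foxj1. Striatal projection neuron markers summed to 220, 219, 161 and 183 CPM against 198, 182 and 166 CPM, led by Ppp1r1b, which cortical neurons also express. By both tools 0 genes of these lists were called, of 5 and 10 tested, beside 5.35% of all known genes by edgeR. An unadjusted p under 0.05 was found for 1 and 0 of them, and the medians were 0.41 and 0.30. The choroid median was 0.03 without Ctrl + Saline sample 3 and 0.86 without Kdm7a-shRNA + Morphine sample 3. The striatal median was -0.03 without Kdm7a-shRNA + Morphine sample 2 and 0.02 with the 10-count filter. Glutamatergic and layer genes such as Slc17a7, at 377 and 313 CPM, were present as the tissue label states.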

How the data were processed

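mPFC RNA of 16 samples in 4 groups was sequenced as Nanopore full-length cDNA. The authors mapped reads to mm10 with minimap2 and deposited a read count per gene, without normalization. The deposited CPM values equal each count divided by its column total, to within 4.99e-06. The software was R 4.3.3, limma 3.58.1 and edgeR 4.0.16. Of 26625 entries, 18826 passed filterByExpr on the 4 groups, 14162 of them known genes. All 16 samples entered 1 fit with a coefficient per group, scaled by TMM and tested by quasi-likelihood F test in edgeR. P-values were adjusted by Benjamini-Hochberg over the 18826 entries, with calls at adjusted p under 0.05 and 1.5-fold. Total counts were 6596991 to 12418112 per sample, and the biological coefficient of variation was 0.215. The median 95% interval reached 0.48 on the log2 scale to either side. Sample numbers shared by groups were not taken as pairs, since same-numbered samples did not correlate after removing group means (-0.03, -0.02 and -0.01).

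The members, the 28 lists and the tests were chosen with earlier results of these data known, and lists received counts and medians only. The named genes are Kdm7a, Fscn1, Grin2a, Shank1 and Gapdh; the 10 higher and 10 lower called genes with the smallest adjusted p; up to 4 called members of each list by adjusted p, with the most abundant member of each marker list; and, in each class of morphine-shifted genes, the 5 with the smallest unadjusted p for morphine. Not every gene chosen by these rules is described. Alternatives were DESeq2 1.42.0, RLE size factors, library size alone, TMM over known genes, other filters, known genes alone, the 7 samples alone, a block for sample number, leaving out each of the 7 samples, and a GC offset over 20 bins chosen after seeing the data. Transcript-level values were not used. Of the list genes, 2 were absent from the table and 14 had too few reads.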

Additional observations from a re-analysis of the deposited data

Results flagged for a closer look

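Of 67 named genes and 13 other measures in the Kdm7a-shRNA + Morphine group, 7 had 1 sample far from the other 3. Chance gives about 1 such sample in 20 groups. Sample 3 was the highest for Atf3 (14.005 CPM, others 5.396 to 6.59), Lpl (41.5 CPM, others 11.95 to 13.2) and Tyrobp (2735 CPM, others 632 to 895). It also had the lowest TMM factor (0.939, others 0.983 to 0.991). Sample 2 was the highest for Aldoc, an aldolase of astrocytes (9169 CPM, others 7430.5 to 7547), and for Dhx15 (38.5 CPM, others 30.9 to 31.2). Sample 4 was the lowest for Ppp1r1b (52.9 CPM, others 71.1 to 74.8).

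For 3 named genes the effect of morphine differed between viruses by edgeR's interaction test. The effect with knockdown minus the effect with control virus was -0.997 on the log2 scale for Poldip2 (edgeR adjusted p = 0.0472), -2.17 for Tmem70 (edgeR adjusted p = 0.00705) and -1.32 for Pdgfa (edgeR adjusted p = 0.0472). These genes were named for a small p of morphine with the control virus, a term of this difference, so its negative sign was largely fixed by the choice. Of all known genes, 16 were called in this test. All 3 genes were above baseline both in Ctrl + Morphine and in Kdm7a-shRNA + Saline samples on average.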

How the results depend on the processing

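Of 1112 values for the 66 named genes besides Kdm7a, 958 kept direction and side of the threshold, 131 (21 genes) kept direction and lost the call, 1 gained it and 22 (7 genes) changed sign. The count of called genes (757) was 465 with at least 10 counts in every sample, 322 for known genes only, 277 for the 7 samples alone, and 228 to 1249 with 1 sample left out. Higher genes (596) were 387 with library size only, 306, 184 and 184 under those 3 settings, 373 with the GC offset, and 156 to 940 with 1 left out. Lower genes (161) were 280 with library size only, 249 with TMM over known genes, 93 for the 7 samples alone, 252 with a block for sample number, 259 with the GC offset, and 72 to 309 with 1 left out. The known genes held within 1.5-fold of baseline (4329) were 9428 at a width of 2-fold. Morphine-shifted genes at baseline (36) were 12 to 30 with 1 left out. Those on the same side (179) were 111, 64 and 56 under the 3 settings above, 108 with the GC offset, and 62 to 420 with 1 left out. Kdm7a was -0.96 on the 7 samples alone (edgeR adjusted p = 0.0596, range over alternatives -1.09 to -0.76). Sign changes were in the log2 fold changes of Fscn1 (-0.15 to 0.18 with 1 left out) and Gapdh (-0.108 to 0.00632 with 1 left out). With the GC offset Shank1 (-0.0208), Bcan (-0.0186) and Lrrn2 (-0.0752) also changed sign. Myef2 turned to -0.0289, -0.00963 and -0.00394 with library size, TMM over known genes and known genes only. The Syt1 log2 fold change turned to -0.0891 (library size), -0.0714 (TMM over known genes), -0.0362 (at least 10 counts), -0.0649 (known genes only), -0.00585 (7 samples alone), -0.0893 (block), -0.0133 (GC offset) and -0.15 to 0.15 with 1 left out. The cause of these changes was not tested, other than fewer samples or genes by construction. Of 19069 known genes, 14162 had enough reads to be tested.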
